A study of Mus musculus with 12 samples.

Results

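The Id genes Id1, Id2 and Id3 and the E protein genes Tcf3, Tcf4 and Tcf12 were followed in sorted mouse bone marrow cells with and without the transcription factors FoxO1, FoxO3 and FoxO4. They were read through every probe set that the platform annotation pairs with 1 of the 6 genes, which gave 19 of the 45101 probe sets of the array. Id1 and Id3 have 1 probe set each, Id2 and Tcf3 have 3 each, Tcf12 has 5 and Tcf4 has 6. Id2 and Tcf4 were lower in myeloid progenitors than in LSK cells both in FoxO-deficient and in wild-type cells, the wild-type calls of Tcf4 resting near the threshold. Most of the Tcf4 calls, in FoxO-deficient as in wild-type cells, were lost under another scaling of the arrays. Id3 was lower in FoxO-deficient myeloid progenitors than in FoxO-deficient LSK cells. No probe set of the 6 genes passed the test for an effect of FoxO deficiency in either cell type.

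E proteins are basic helix-loop-helix transcription factors that bind E boxes in DNA as dimers. They drive genes of the lymphoid lineages and pair with partners such as Tal1 and Lyl1 in blood progenitors. Id proteins have the helix-loop-helix part but lack the region that binds DNA, so a dimer of an Id and an E protein cannot bind an E box. Id genes are classic targets of bone morphogenetic protein (BMP) signalling through SMAD proteins, and Id1 is known to help maintain hematopoietic stem cells.

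There were 4 groups of 3 arrays: FoxO-deficient myeloid progenitors (arrays 10 to 12), wild-type myeloid progenitors (arrays 7 to 9), FoxO-deficient LSK cells (arrays 4 to 6) and wild-type LSK cells (arrays 1 to 3). LSK cells are the lineage-negative marrow cells that carry Sca-1 and Kit and hold the stem cells, which the labels' protocol calls hematopoietic stem cells. Both FoxO-deficient groups came from pooled Mx-Cre+ mice with LoxP-flanked FoxO1, FoxO3 and FoxO4 alleles, and both wild-type groups from pooled Mx-Cre- mice with the same floxed alleles. The wild-type cells therefore also carry the floxed alleles, and an effect of FoxO deficiency cannot be told apart from an effect of the transgene. Mx-Cre is driven by an interferon-inducible promoter and is not limited to blood cells. The labels name genes of reactive oxygen metabolism as the subject of the comparison. They give neither the age of the mice nor how Cre was induced, nor whether separate pools of mice stand behind the arrays of 1 group. The p-values therefore rest on the variation from array to array, part or all of which may be technical.

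Values below are normalized intensities, in arbitrary units of array brightness, and are compared only within a probe set. Differences are log2 changes with their standard errors from a limma fit to all 12 arrays, 3 per group. A probe set was called when its adjusted p (Benjamini-Hochberg over 31779 probe sets that passed a filter on dim values) was below 0.05. The highest reading among 27 control probe sets for bacterial transcripts served as the background limit of each array and lay between 4.54 and 12.4.

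Wild-type LSK array 2 stood apart. Its Gapdh control read 344 times as high at the 3′ end of the transcript as at the 5′ end, and its Actb control 145 times, against at most 2.37 and 3.36 times on any of the remaining 11 arrays. Across probe sets its correlations with arrays 1 and 3 were 0.846 and 0.852, and all other pairs within groups lay between 0.929 and 0.947. Foxo4 was lower in both FoxO-deficient groups (log2 change -2.46 ± 0.20, adjusted p = 2.80e-04 in myeloid progenitors, and -2.20 ± 0.20, adjusted p = 0.00447 in LSK cells). Foxo1 did not pass the test in either cell type (log2 change -0.90 ± 0.58 in myeloid progenitors and -1.94 ± 0.58 in LSK cells), and Foxo3 was not lower (0.38 ± 0.16 and 0.22 ± 0.16). Which exons the LoxP sites flank is not stated in the labels, and probes that lie elsewhere in a gene cannot show its loss. In sum, though not marker by marker, the sorted populations matched their names: 16 measured markers of LSK cells summed to 3903 to 4128 in FoxO-deficient and 3739 to 4014 in wild-type myeloid progenitors, against 10046 to 10619 in FoxO-deficient and 10310 to 11256 in wild-type LSK cells. The sum of 17 myeloid progenitor markers was 23181 to 23758 and 20544 to 21076 in FoxO-deficient and wild-type myeloid progenitors, against 5226 to 5661 and 4469 to 7183 in FoxO-deficient and wild-type LSK cells. Of the LSK list, Cd48 averaged 591 in FoxO-deficient and 335 in wild-type myeloid progenitors, against 427 and 223 in LSK cells. Of the myeloid list, Csf2rb averaged 397 in wild-type LSK cells and 253 in wild-type myeloid progenitors, but 238 and 448 in FoxO-deficient ones. The 12 measured neutrophil markers summed to 8965 to 9218 in FoxO-deficient and 6215 to 8786 in wild-type LSK cells. They summed to 6679 to 6975 and 4721 to 4846 in the myeloid progenitors.

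Promoter sequences place the genes on which the results turn. Of the 6 genes, 4 matched an entry in the RefSeq promoter table of assembly GRCm38.p6. The 250 bases before the start of Id2 (chr12:25096093-25096342, minus strand), Id3 (chr4:136143572-136143821, plus strand) and Tcf3 (chr10:80433636-80433885, minus strand) are shown because Id2 and Id3 include probe sets that were called lower in myeloid progenitors than in LSK cells, and Tcf3 does not. The Id2 and Id3 windows adjoin the spans given below for these genes. The Tcf3 window lies inside the span of Tcf3, 80409541 to 80433976, so its positions count from a listed start within that span. Capitals mark matches to the motifs searched.
Id2: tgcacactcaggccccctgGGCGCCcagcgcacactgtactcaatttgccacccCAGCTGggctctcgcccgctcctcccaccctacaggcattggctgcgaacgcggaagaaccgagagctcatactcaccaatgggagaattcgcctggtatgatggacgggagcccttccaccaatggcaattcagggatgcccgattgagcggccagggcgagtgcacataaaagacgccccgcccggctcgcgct
Id3: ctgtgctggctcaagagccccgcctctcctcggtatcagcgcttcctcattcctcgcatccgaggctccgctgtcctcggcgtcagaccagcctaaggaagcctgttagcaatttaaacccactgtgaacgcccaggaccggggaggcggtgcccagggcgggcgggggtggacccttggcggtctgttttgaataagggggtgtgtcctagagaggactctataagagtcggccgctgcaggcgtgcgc
Tcf3: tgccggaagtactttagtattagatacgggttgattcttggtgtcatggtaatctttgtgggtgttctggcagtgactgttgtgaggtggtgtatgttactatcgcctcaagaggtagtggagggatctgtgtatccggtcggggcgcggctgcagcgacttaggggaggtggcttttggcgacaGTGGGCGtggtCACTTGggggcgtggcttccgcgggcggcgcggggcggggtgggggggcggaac

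The motifs, searched on both strands, were GTAAACA for FoxO, TGACGT for part of the cyclic AMP response element, GTGGGCG for Egr factors, the CArG box for serum response factor, GGCGCC for SMADs and CANNTG for E boxes. The Id2 window held GGCGCC at -231 to -226 from the start and an E box, CAGCTG, at -196 to -191. The Tcf3 window held GTGGGCG at -65 to -59 and an E box, CACTTG, at -54 to -49. The Id3 window held none of these motifs. Tcf12 has 3 windows on chromosome 9, of which 2 held an E box (CAAGTG and CAGCTG) and none held another motif. GTAAACA, which was in none of these windows, was in 3.17% of the 32851 promoters of the table. The shares were 6.47% for TGACGT, 7.02% for GTGGGCG, 1.47% for the CArG box, 9.59% for GGCGCC and 66.2% for the E box. A match is a description of the letters and not a bound site.

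**Figure D1:**
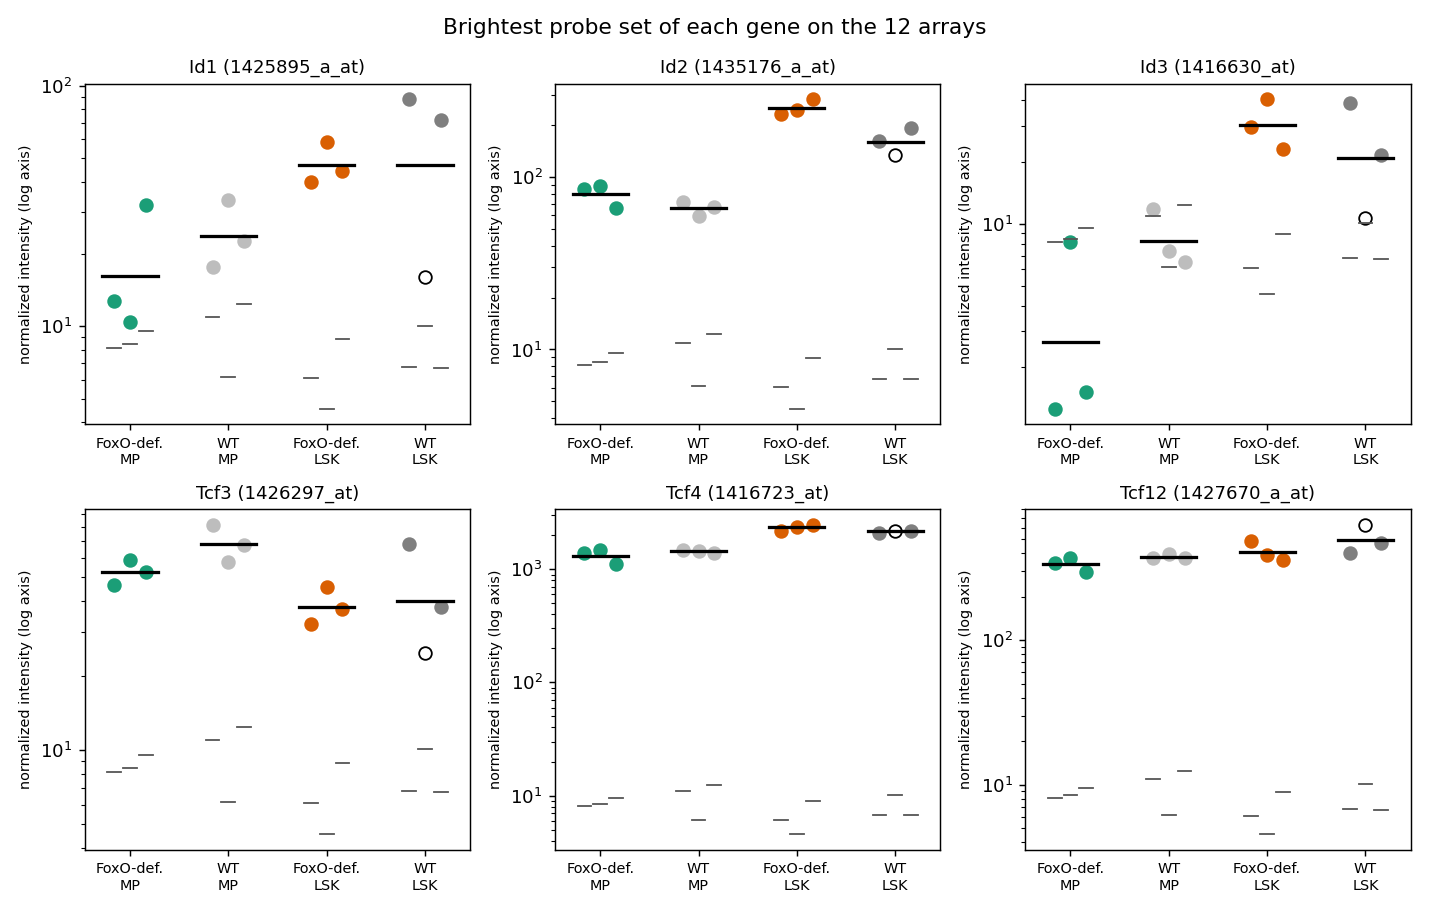
Normalized intensity (log axis) of the brightest probe set of each gene on each of the 12 arrays. Points are arrays, the open point is wild-type LSK array 2, long bars are group means and short bars are each array's background limit. Id2 and Tcf4 read lower on all 6 myeloid progenitor arrays than on all 6 LSK arrays.

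Id2, an Id gene needed for innate lymphoid and some dendritic cells and known to act in hematopoietic stem cells, was the Id gene measured most firmly. It lies on chromosome 12 from 25093799 to 25096092. Its brightest probe set, 1435176_a_at, read 84.9, 88.4 and 66.3 in FoxO-deficient myeloid progenitors and 71.6, 59.7 and 66.9 in wild-type myeloid progenitors. It read 233, 244 and 283 in FoxO-deficient LSK cells and 162, 133 and 193 in wild-type LSK cells. Each myeloid progenitor array was below each LSK array. The log2 change between the cell types was -1.66 ± 0.20 in FoxO-deficient cells (limma adjusted p = 5.23e-04) and -1.28 ± 0.20 in wild-type cells (adjusted p = 0.00276). In bulk samples, fewer cells of a type with the transcript and less of it per cell cannot be told apart.

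Within LSK cells, all 3 FoxO-deficient arrays of this Id2 probe set lay above all 3 wild-type arrays. The log2 change was 0.65 ± 0.20, with a 95% interval of 0.20 to 1.10, and it did not pass the test (adjusted p = 0.323). It was 0.51 ± 0.17 without array 2 (adjusted p = 0.242). In myeloid progenitors the groups overlapped, and the log2 change with FoxO deficiency was 0.26 ± 0.20 (interval -0.19 to 0.72, adjusted p = 0.707).

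Another Id2 probe set, 1422537_a_at, shows how far array 2 can carry a value. It read 22.9, 19.2 and 32.2 in FoxO-deficient myeloid progenitors, 25.2, 28.2 and 18.5 in wild-type myeloid progenitors, and 112, 75.1 and 79.9 in FoxO-deficient LSK cells. The wild-type LSK arrays read 81.0, 1.18 and 65.7, the middle value being array 2, below its background limit. With all arrays the change between cell types was not called in FoxO-deficient (-1.83 ± 1.17, adjusted p = 0.347) or wild-type cells (0.19 ± 1.17, adjusted p = 0.940). Without array 2 both passed, at log2 changes of -1.84 (adjusted p = 9.19e-04) and -1.61 (adjusted p = 0.00405). The last Id2 probe set, 1453596_at, did not pass the filter and exceeded the background limit on no array, reading 0.200 to 5.99.

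Id3, which restrains E proteins in developing lymphocytes and lies on chromosome 4 from 136143822 to 136145392, was lower in FoxO-deficient myeloid progenitors than in FoxO-deficient LSK cells. Its only probe set, 1416630_at, read 1.26, 8.14 and 1.52 in FoxO-deficient myeloid progenitors, all below the background limit. Wild-type myeloid progenitors read 11.9, 7.35 and 6.49, 2 of them above the limit. FoxO-deficient LSK cells read 29.6, 40.6 and 23.3, and wild-type LSK cells 38.7, 10.7 and 21.7, all above it. The transcript was at least 3.34-fold lower in FoxO-deficient myeloid progenitors than in FoxO-deficient LSK cells (limma adjusted p = 0.00650). In wild-type cells the groups overlapped through array 2, and the log2 change between cell types, -1.27 ± 0.62, did not pass (adjusted p = 0.209).

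Id3 had the lowest unadjusted p of the 17 kept probe sets for FoxO deficiency in myeloid progenitors. The log2 change was -1.45 ± 0.62, with an interval of -2.83 to -0.07, and it did not pass the test (adjusted p = 0.379). The FoxO-deficient readings are below background, so the size of this change is not measured. In LSK cells the groups overlapped (0.53 ± 0.62, adjusted p = 0.755).

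Id1 lies on chromosome 2 from 152736251 to 152737410 and its probe set 1425895_a_at was above background on all 12 arrays. It read 12.7, 10.4 and 31.9 in FoxO-deficient myeloid progenitors and 17.6, 33.5 and 22.7 in wild-type myeloid progenitors. It read 39.7, 58.5 and 44.3 in FoxO-deficient LSK cells, all above the FoxO-deficient myeloid progenitors. Wild-type LSK cells read 88.1, 16.0 and 72.3, with array 2 alone inside the range of the myeloid progenitors. Neither cell type difference passed the test, at -1.50 ± 0.62 in FoxO-deficient cells (adjusted p = 0.146) and -0.96 ± 0.62 in wild-type cells (adjusted p = 0.349). Both passed without array 2, at -1.51 (adjusted p = 0.0240) and -1.72 (adjusted p = 0.0258). For FoxO deficiency the log2 change of Id1 was -0.54 ± 0.62 in myeloid progenitors (interval -1.93 to 0.85, adjusted p = 0.855) and -0.00 ± 0.62 in LSK cells (interval -1.39 to 1.39, adjusted p = 1.00), so neither interval shows that the groups were alike.

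Tcf4, the E protein gene required for plasmacytoid dendritic cells, was the E protein gene that separated the cell types. Its brightest probe set, 1416723_at, read 1393, 1469 and 1124 in FoxO-deficient myeloid progenitors and 1469, 1454 and 1397 in wild-type myeloid progenitors. It read 2188, 2383 and 2473 in FoxO-deficient LSK cells and 2108, 2194 and 2186 in wild-type LSK cells. The myeloid progenitor and LSK arrays did not overlap, and array 2 lay among its group. The log2 change between cell types was -0.83 ± 0.16 in FoxO-deficient cells (adjusted p = 0.00785) and -0.59 ± 0.16 in wild-type cells (adjusted p = 0.0393).

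The Tcf4 probe sets 1434148_at and 1434149_at likewise separated the cell types. On 1434148_at the readings were 258, 276 and 239 in FoxO-deficient and 270, 274 and 296 in wild-type myeloid progenitors, against 439, 463 and 468 in FoxO-deficient and 386, 423 and 420 in wild-type LSK cells. Its log2 change between cell types was -0.82 ± 0.15 (adjusted p = 0.00537) in FoxO-deficient cells and -0.55 ± 0.15 (adjusted p = 0.0377) in wild-type cells. Probe set 1434149_at read 351, 420 and 401 in FoxO-deficient and 451, 456 and 470 in wild-type myeloid progenitors, against 810, 630 and 885 in FoxO-deficient and 740, 680 and 721 in wild-type LSK cells. Its log2 change was -0.98 ± 0.18 (adjusted p = 0.00509) in FoxO-deficient cells and -0.64 ± 0.18 (adjusted p = 0.0391) in wild-type cells. Both probe sets separated the 6 myeloid progenitor arrays from the 6 LSK arrays.

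The dimmer Tcf4 probe sets 1416724_x_at and 1424089_a_at passed the test in FoxO-deficient cells (log2 change -1.50 ± 0.36, adjusted p = 0.0201, and -1.26 ± 0.33, adjusted p = 0.0311). In wild-type cells they did not (-0.61 ± 0.36 and -0.30 ± 0.33), where array 2 read 128 and 46.1 against 290 and 253, and 130 and 105, on arrays 1 and 3. Both passed there without array 2, at -0.97 (adjusted p = 0.0477) and -0.74 (adjusted p = 0.0108). The last Tcf4 probe set, 1416725_at, did not pass the filter and read 0.531 to 4.99, under the background limit on every array.

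The wild-type calls of Tcf4 depended on single arrays and on the scaling. With any 1 array other than array 2 left out, 1 to 3 members were called in wild-type cells, and Id2 1435176_a_at was called each time. With only the 6 wild-type arrays in the fit no member was called, and Id2 1435176_a_at had an adjusted p of 0.0600. Under median scaling in place of quantile normalization the 3 called Tcf4 probe sets had log2 changes of -0.34, -0.23 and -0.33 in wild-type cells and lost their calls (adjusted p = 0.345, 0.453 and 0.318). That scaling put the median of all probe sets at 0.23 in FoxO-deficient and 0.19 in wild-type cells, against 0.06 in both under quantile normalization. In FoxO-deficient cells 4 of the 5 Tcf4 calls were lost under median scaling, and 1416724_x_at kept its own (adjusted p = 0.0480). The Id2 probe set 1435176_a_at passed under both scalings. None of the Tcf4 probe sets passed the test for FoxO deficiency. The log2 change of 1416723_at was -0.13 ± 0.16 in myeloid progenitors (interval -0.49 to 0.24) and 0.12 ± 0.16 in LSK cells (interval -0.25 to 0.48). In myeloid progenitors it was -0.48 ± 0.36 for 1416724_x_at, -0.42 ± 0.33 for 1424089_a_at, -0.12 ± 0.15 for 1434148_at and -0.24 ± 0.18 for 1434149_at. In LSK cells these probe sets changed by 0.41 ± 0.36, 0.53 ± 0.33, 0.16 ± 0.15 and 0.10 ± 0.18. The FoxO-deficient arrays lay wholly below the wild-type ones for 1424089_a_at and 1434149_at in myeloid progenitors, and wholly above for 1434148_at in LSK cells.

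Tcf3, which encodes the E2A proteins of early B and T cell development and lies on chromosome 10 from 80409541 to 80433976, had no probe set that passed a test between cell types over all 12 arrays. Probe set 1426297_at read 46.5, 58.9 and 52.7 in FoxO-deficient myeloid progenitors and 81.7, 58.0 and 67.6 in wild-type myeloid progenitors. It read 32.3, 45.9 and 37.2 in FoxO-deficient LSK cells and 68.3, 24.7 and 37.9 in wild-type LSK cells. Its differences between cell types, 0.46 ± 0.33 in FoxO-deficient and 0.77 ± 0.33 in wild-type cells, did not pass (adjusted p = 0.420 and 0.163). Without the wild-type LSK array 1 the wild-type difference was 1.16 ± 0.27 and passed (adjusted p = 0.0228), the one setting in which it did. That setting leaves arrays 2 and 3 as the wild-type LSK group, so the call leaned on array 2, the lowest reading. Over the alternatives the wild-type difference ran from 0.42 to 1.16. The FoxO-deficient cell types did not overlap, and the wild-type cell types did. Probe set 1427764_a_at ranged from 11.4 to 25.0 in FoxO-deficient and 9.43 to 20.9 in wild-type myeloid progenitors, and from 11.9 to 18.1 in FoxO-deficient and 8.26 to 10.7 in wild-type LSK cells. The LSK groups of 1427764_a_at did not overlap, and the log2 change with FoxO deficiency, 0.56 ± 0.37, did not pass (adjusted p = 0.594). Probe set 1452542_x_at exceeded background on 1 array of 12. The log2 change of 1426297_at with FoxO deficiency was -0.38 ± 0.33 in myeloid progenitors and -0.07 ± 0.33 in LSK cells (adjusted p = 0.769 and 0.942). The symbols are those of the E protein genes: Tcf7l1, for which Tcf3 was an older name, averaged 2.82 to 9.80 across the 4 groups on its brightest probe set and was not counted as a member.

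Tcf12, the E protein gene that partners with Tcf3 products in thymocytes, lies on chromosome 9 from 71844252 to 72111893, and the signs of its 5 probe sets were mixed. The brightest, 1427670_a_at, read 340, 368 and 296 in FoxO-deficient and 372, 393 and 369 in wild-type myeloid progenitors, against 485, 387 and 358 in FoxO-deficient and 400, 626 and 470 in wild-type LSK cells. The highest of these 12 readings was array 2. Probe set 1421908_a_at read 45.5, 36.1 and 40.4 in FoxO-deficient and 77.3, 49.2 and 59.3 in wild-type myeloid progenitors, against 46.9, 42.4 and 43.7 in FoxO-deficient and 35.4, 98.5 and 34.0 in wild-type LSK cells, where array 2 was again the highest. The difference of 1427670_a_at between cell types was -0.29 ± 0.21 in FoxO-deficient cells and -0.38 ± 0.21 in wild-type cells. For 1446294_at the difference had the opposite sign, 0.70 ± 0.31 and 0.35 ± 0.31. None of these 4 values passed the test (adjusted p = 0.425, 0.279, 0.174 and 0.510).

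Probe set 1439209_at of Tcf12 had the lowest adjusted p of any member for a difference of the FoxO effect between cell types. It read 38.1, 30.9 and 35.4 in FoxO-deficient and 51.7, 59.1 and 47.3 in wild-type myeloid progenitors. It read 58.5, 45.2 and 67.9 in FoxO-deficient and 16.4, 43.7 and 38.0 in wild-type LSK cells. FoxO-deficient arrays were thus all below wild-type arrays in myeloid progenitors (-0.59 ± 0.34, adjusted p = 0.553) and all above them in LSK cells (0.89 ± 0.34, adjusted p = 0.417). The test of the difference itself did not pass (log2 change -1.48 ± 0.48, adjusted p = 0.273, and -1.75 with adjusted p = 0.0878 without array 2). For the other Tcf12 probe sets the log2 change with FoxO deficiency in LSK cells was 0.54 ± 0.21 for 1439619_at (adjusted p = 0.431), 0.02 ± 0.31 for 1446294_at, -0.15 ± 0.37 for 1421908_a_at and -0.27 ± 0.21 for 1427670_a_at. In myeloid progenitors these changes were, in the same order, -0.04 ± 0.21, 0.37 ± 0.31, -0.58 ± 0.37 and -0.18 ± 0.21. That of 1421908_a_at had a limma adjusted p of 0.620, and of 0.0876 without array 2, the lowest of the members in that comparison and setting.

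**Figure D2:**
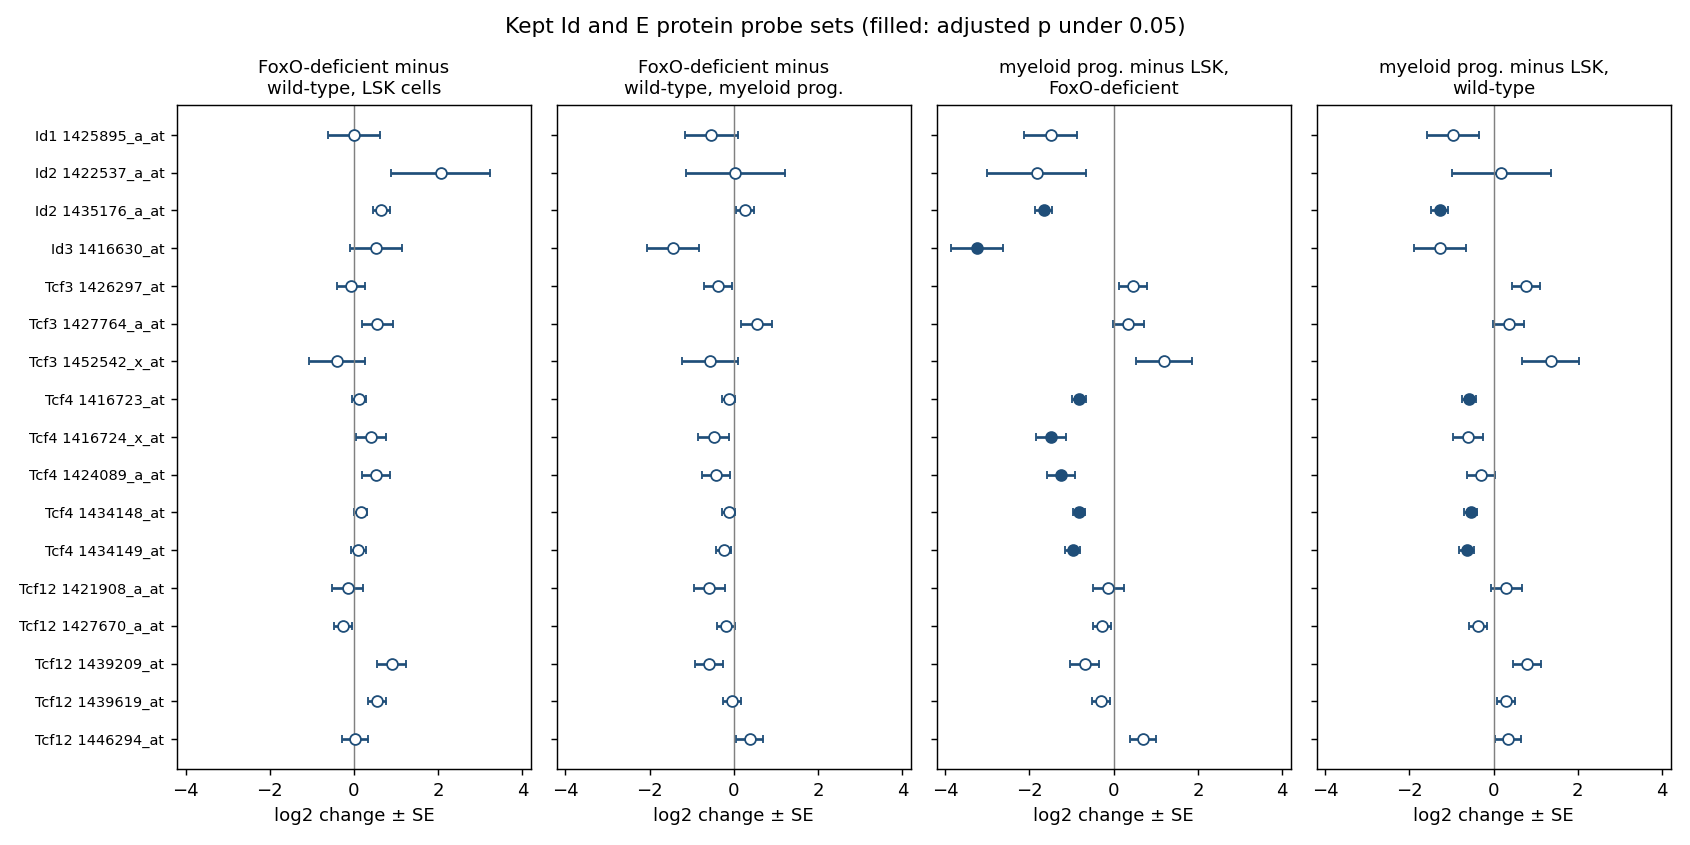
Log2 change with its standard error for the 17 probe sets that passed the filter, in 4 comparisons. Filled points have an adjusted p below 0.05. No point is filled in the 2 panels on FoxO deficiency, 7 are filled for FoxO-deficient and 4 for wild-type myeloid progenitors against LSK cells, and all of these lie left of 0.

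Counted over the members, the limma test for FoxO deficiency called none of the 17 kept probe sets in myeloid progenitors, where it called 1.46% of all kept probe sets, and none in LSK cells, where it called 0.148%. At an unadjusted p below 0.05 there was 1 in myeloid progenitors, that of Id3, beside 12.2% of all kept probe sets, and 3 in LSK cells, those of Id2 (1435176_a_at) and Tcf12 (1439209_at and 1439619_at), beside 10.5%. No difference of the FoxO effect between cell types was called among members (2 at an unadjusted p below 0.05, beside 10.5% of all kept probe sets), against 0.588% of all kept probe sets. At such low shares a count of 0 among 17 says little about these genes. Without array 2 the counts among members were again 0 in all 3 comparisons, beside 6.23% of kept probe sets in myeloid progenitors, 0.512% in LSK cells and 2.19% for the difference. The median log2 change with FoxO deficiency over the members was -0.24 in myeloid progenitors and 0.16 in LSK cells, beside 0.02 and 0.01 over all kept probe sets. The groups did not overlap for 6 members in each cell type, 5 below and 1 above in myeloid progenitors, and 1 below and 5 above in LSK cells. In myeloid progenitors those below were probe sets of Tcf4 and Tcf12 only, and the 1 above was of Tcf12. In LSK cells those above were of Id2, Tcf3, Tcf4 and Tcf12. The 1 below there, Tcf3 1452542_x_at, was under the background limit on every LSK array. Over all kept probe sets the FoxO-deficient arrays lay wholly below the wild-type ones for 13.3% and wholly above for 15.0% in myeloid progenitors, and below for 7.57% and above for 8.63% in LSK cells.

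Between cell types, 7 of 17 members were called in FoxO-deficient cells and 4 in wild-type cells, and all were lower in myeloid progenitors. Among all kept probe sets 14.6% were called in FoxO-deficient and 14.5% in wild-type cells, and 7.82% and 7.59% were called lower. The 7 were Id2 (1435176_a_at), Id3 and 5 probe sets of Tcf4, and the 4 were the same Id2 probe set and 3 of Tcf4. Probe sets of a gene share a transcript, so these counts stand for 3 genes and 2 genes. Without array 2 the counts were 9 lower in FoxO-deficient cells (background 14.0%) and 8 lower with 2 higher in wild-type cells (background 11.5% lower and 13.5% higher). The 2 higher ones were Tcf12 1421908_a_at (log2 change 0.80, adjusted p = 0.0164) and 1439209_at (1.06, adjusted p = 0.0454).

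**Figure D3:**
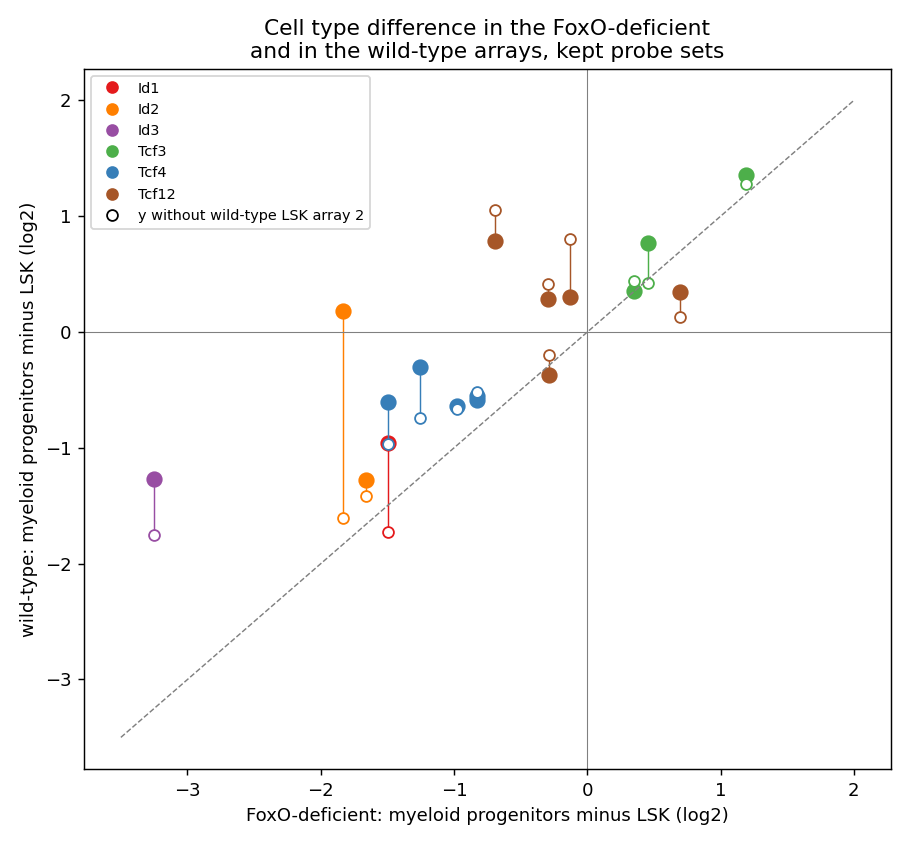
Log2 difference between myeloid progenitors and LSK cells for the 17 kept probe sets, FoxO-deficient cells on the x axis and wild-type cells on the y axis. Filled points use all arrays, open points leave array 2 out of the y value and the dashed line marks equal differences. Without array 2 the Id2 point at 0.19 on the y axis moves to -1.61.

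The FoxO-deficient and wild-type comparisons share no array, but their calls are not independent. Both rest on the same quantile normalization and the same fit, with a shared variance for each probe set. Leaving out wild-type LSK array 2 changed the count of members called in FoxO-deficient cells from 7 to 9. A call in both comparisons is therefore not an independent replication. The sign was the same in both for 13 of 17 members, 9 lower and 4 higher in myeloid progenitors. The same held for 68.7% of all 31779 kept probe sets, so the share among members is near the general one. All 4 members called in wild-type cells, which stand for 2 genes, were also called in FoxO-deficient cells, as were 2504 of the 4619 kept probe sets called in wild-type cells.

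**Figure D4:**
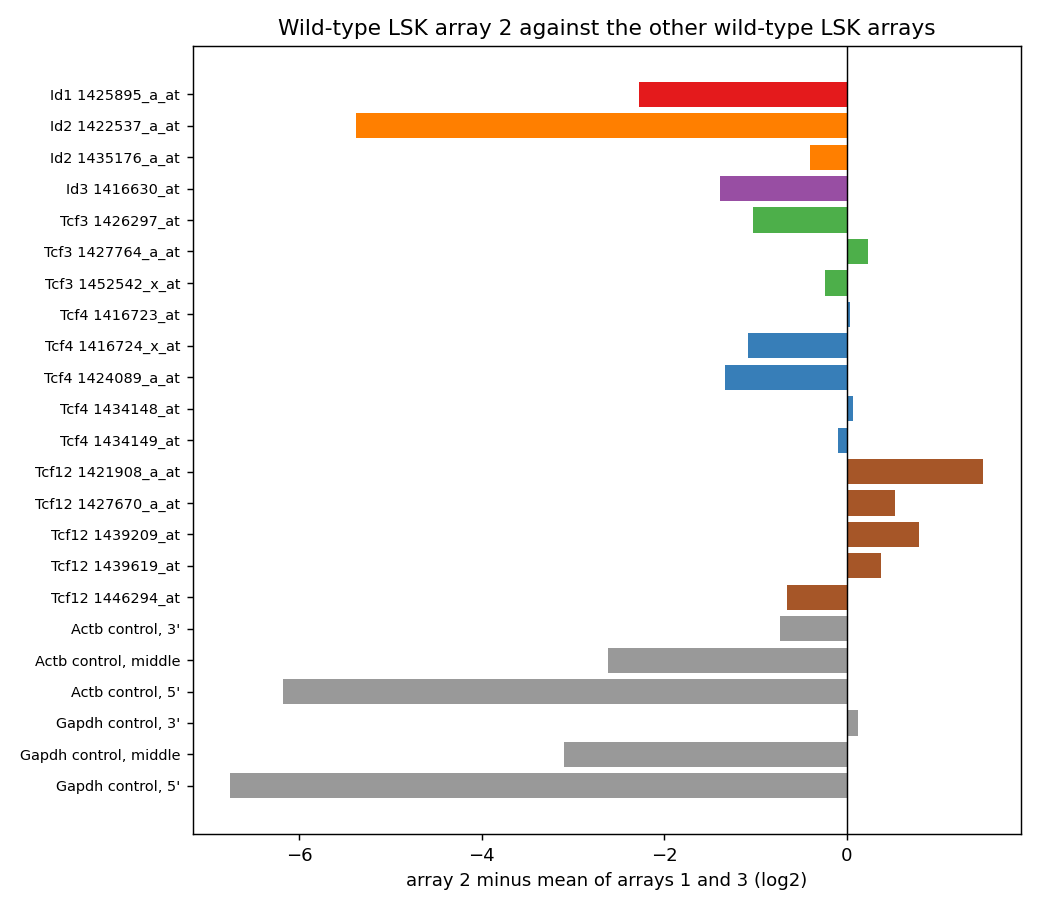
Log2 difference of wild-type LSK array 2 from the mean of wild-type LSK arrays 1 and 3, for the 17 kept probe sets and the Actb and Gapdh control probe sets. The 5′ controls are lower by over 6, Id2 1422537_a_at reads -5.37 and Id1 reads -2.28, whereas Tcf12 1421908_a_at reads 1.49.

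Array 2 read lower than the mean of arrays 1 and 3 for 10 members and higher for 7. It was lower by more than 1 on the log2 scale for 6 probe sets, among them Id1 (-2.28), Id3 (-1.39), Tcf3 1426297_at (-1.03) and Tcf4 1424089_a_at (-1.33). Probe sets of the same gene differed in how far array 2 departed: the difference was 0.03 for Tcf4 1416723_at, and for Id2 it was -0.40 on 1435176_a_at and -5.37 on 1422537_a_at.

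Genes around the Id and E proteins were counted with 1 probe set per gene. Of 13732 genes, 1.48% were called for FoxO deficiency in myeloid progenitors (0.517% higher and 0.961% lower), 0.167% in LSK cells (0.0947% lower) and 0.619% for the difference. Between cell types 17.0% were called in FoxO-deficient cells (8.53% higher and 8.51% lower) and 18.0% in wild-type cells (8.00% higher and 10.0% lower). Without array 2 more was called, so list counts in that setting have another background. Over all kept probe sets it was 6.23% for FoxO deficiency in myeloid progenitors, 0.512% in LSK cells and 2.19% for the difference. Between wild-type cell types it was 13.5% higher and 11.5% lower. Between FoxO-deficient ones 14.0% were lower, and 5151 of 31044 probe sets were higher. The lists were drawn up with results of these data known, so their counts are descriptions. Medians over these genes lay between -0.04 and 0.11.

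The E protein partners and cofactors include Tal1, Lyl1 and the LIM-only proteins. None of 17 measured genes was called for FoxO deficiency in either cell type or for the difference. Between cell types 4 were lower and 1 was higher in FoxO-deficient myeloid progenitors, and 4 were lower in wild-type ones, with list medians of -0.27 and -0.36. Runx1t1, a corepressor relative that binds E proteins, was at least 2.87-fold lower in FoxO-deficient myeloid progenitors than in FoxO-deficient LSK cells (adjusted p = 0.00142), and wild-type cells averaged 8.01 in myeloid progenitors, with 1 array above background, and 116 in LSK cells (adjusted p = 0.00132), so the size of that difference is not measured. Lmo2, the bridging protein of the complex with Tal1, changed by -0.60 ± 0.15 in FoxO-deficient cells (adjusted p = 0.0231) and -0.72 ± 0.15 in wild-type cells (adjusted p = 0.0104). Lyl1, a Tal1 relative, changed by -0.69 ± 0.18 in wild-type cells (adjusted p = 0.0292). In FoxO-deficient cells Lyl1 differed the other way, by 0.49 ± 0.18, which did not pass (adjusted p = 0.0975, and 0.0230 without array 2). Its difference of the FoxO effect was 1.19 ± 0.25 (adjusted p = 0.0860, and 0.0309 without array 2). Lmo4, another LIM-only protein, was the gene called higher, by 1.20 ± 0.21 in FoxO-deficient cells (adjusted p = 0.00467). Without array 2 there were 3 higher and 8 lower in FoxO-deficient myeloid progenitors than in LSK cells, 2 higher and 7 lower in wild-type ones, 2 higher and 2 lower for FoxO deficiency in myeloid progenitors, none in LSK cells, and 2 higher for the difference.

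Of 22 measured genes of the BMP and TGF-beta pathways, none was called for FoxO deficiency in either cell type or for the difference, 7 were lower in FoxO-deficient and 7 in wild-type myeloid progenitors than in LSK cells, and none was higher. The list medians were -0.60 and -0.78. Tgfbr2, the type II receptor for TGF-beta, changed by -1.35 ± 0.19 in FoxO-deficient cells (adjusted p = 0.00123) and -1.55 ± 0.19 in wild-type cells (adjusted p = 6.48e-04). Bmpr2, the type II receptor for BMPs, averaged 370 in FoxO-deficient and 292 in wild-type myeloid progenitors, against 691 in FoxO-deficient and 758 in wild-type LSK cells, and was called in both. Smad7, an inhibitory SMAD, changed by -3.62 ± 0.58 in FoxO-deficient cells (adjusted p = 0.00250). Acvr1b, a type I activin receptor, changed by -1.51 ± 0.27 in wild-type cells (adjusted p = 0.00587). Without array 2 and over 21 genes, 1 was higher and 10 were lower in FoxO-deficient myeloid progenitors than in LSK cells, and likewise 1 and 10 in wild-type ones, while FoxO deficiency gave 1 higher and 2 lower in myeloid progenitors and none in LSK cells, and the difference 1 of each.

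With all arrays the target genes of E proteins called for FoxO deficiency were lower, and those called in the other comparisons went both ways. In FoxO-deficient against wild-type myeloid progenitors 3 of 27 measured genes were lower and none was higher, and in LSK cells 1 was lower. For the difference of the FoxO effect 2 were higher and 1 was lower. The list as drawn up includes Foxo1, whose own alleles were floxed. Socs3, a feedback inhibitor of cytokine signalling, averaged 8.89 in FoxO-deficient and 285 in wild-type myeloid progenitors (adjusted p = 4.40e-04). Of the FoxO-deficient arrays 1 was above background for Socs3, so the size of the fall is not measured. Cdkn1a, the cell cycle inhibitor p21, changed by -1.77 ± 0.31 (adjusted p = 0.0216). Ebf1, the early B cell factor, was at least 1.41-fold lower in FoxO-deficient myeloid progenitors (adjusted p = 0.0256). Igll1, part of the surrogate light chain, was at least 2.29-fold lower in FoxO-deficient LSK cells (adjusted p = 0.0306). Between cell types 3 were higher and 7 lower in FoxO-deficient myeloid progenitors, and 2 were higher and 4 lower in wild-type ones. Dntt, the template-free polymerase of antigen receptor joining, changed by -1.88 ± 0.17 in FoxO-deficient and -1.92 ± 0.17 in wild-type cells. Gfi1, a transcriptional repressor needed for neutrophil development, changed by 2.63 ± 0.18 in FoxO-deficient and 0.91 ± 0.18 in wild-type cells. Without array 2 and over 26 genes, FoxO deficiency gave 2 higher and 3 lower in myeloid progenitors and 2 lower in LSK cells, and between cell types 3 were higher and 10 lower in FoxO-deficient, 2 higher and 9 lower in wild-type myeloid progenitors. The difference of the FoxO effect then gave 2 higher and 2 lower.

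**Figure D5:**
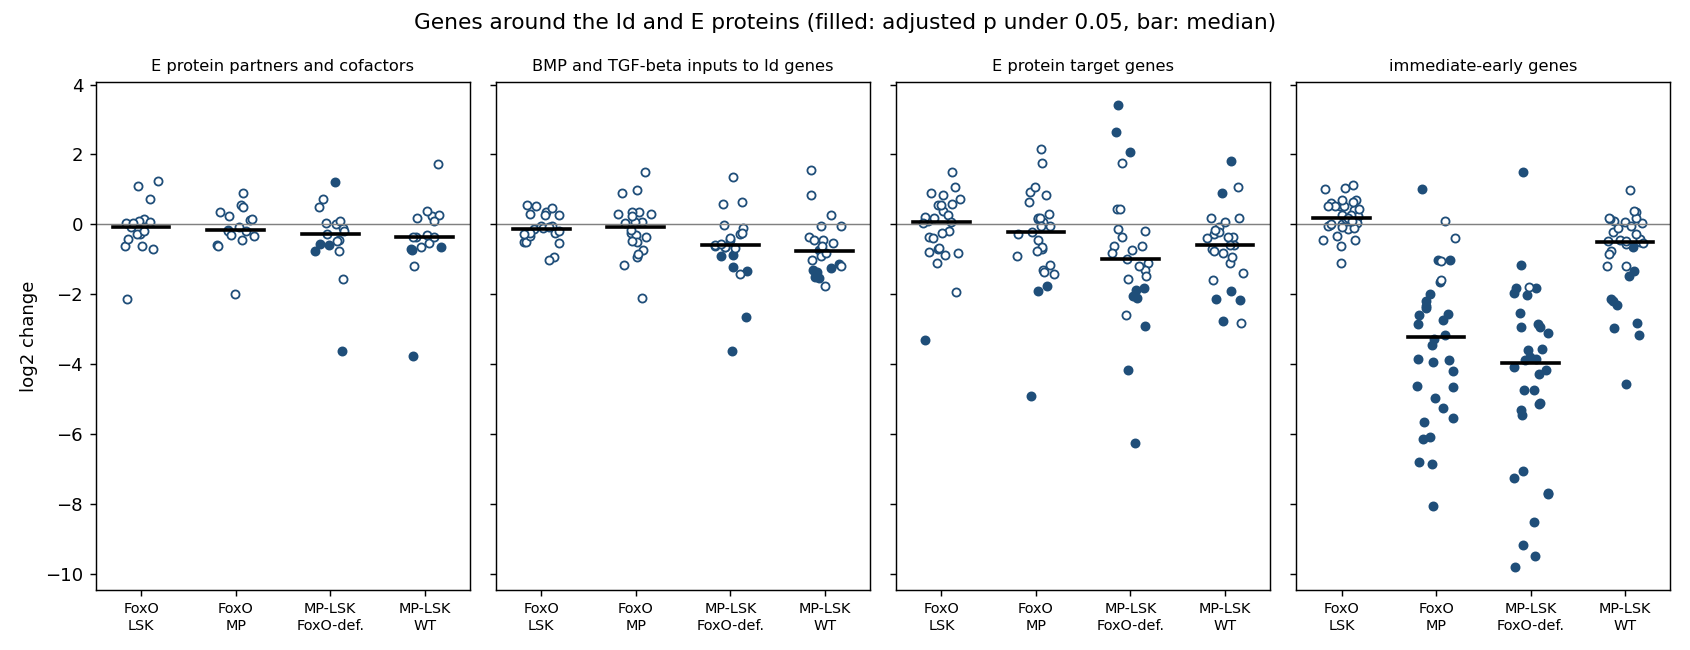
Log2 change of each measured gene of 4 lists in 4 comparisons. Filled points have an adjusted p below 0.05 and bars are list medians. Immediate-early genes lie far below 0 for FoxO deficiency in myeloid progenitors (median -3.23) and near 0 in LSK cells (median 0.19).

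Among 21 other helix-loop-helix genes, 1 was called for FoxO deficiency in myeloid progenitors and none in LSK cells. Bhlhe40, a repressor of the circadian and stress responses, averaged 13.8 in FoxO-deficient and 158 in wild-type myeloid progenitors (log2 change -3.46 ± 0.31, adjusted p = 4.24e-04), and 855 in FoxO-deficient and 679 in wild-type LSK cells. It was also the gene of this list called for the difference between cell types (-3.79 ± 0.43, adjusted p = 0.00419). Between cell types 6 were lower and 1 was higher in FoxO-deficient myeloid progenitors, and 5 were lower in wild-type ones. Hey1, a Notch target, changed by -6.10 ± 0.51 in FoxO-deficient and -4.17 ± 0.51 in wild-type cells, and exceeded background on 2 of the 3 FoxO-deficient myeloid progenitor arrays. Without array 2 and over 20 genes, FoxO deficiency gave 1 higher and 1 lower in myeloid progenitors, and the cell types 3 higher and 6 lower in FoxO-deficient cells and 1 higher and 4 lower in wild-type cells.

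Immediate-early genes, which respond within minutes to stress or handling, were lower with FoxO deficiency in myeloid progenitors, the group in which Id3 was below background. In FoxO-deficient against wild-type myeloid progenitors 29 of 34 were lower and 1 was higher, with a median of -3.23. In LSK cells none was called, with a median of 0.19. Without array 2 the counts were 32 lower and 1 higher in myeloid progenitors and none in LSK cells. With all arrays 24 were lower for the difference of the FoxO effect. Between FoxO-deficient cell types, where Id3 was called, 32 were lower and 1 was higher in myeloid progenitors, with a median of -3.97. Between wild-type cell types 10 were lower, with a median of -0.49. Fos averaged 120 in FoxO-deficient and 3018 in wild-type myeloid progenitors, and Egr1 227 and 3309. Their part in the values of Id1, Id3 and Tcf12 was not tested.

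Markers of other cell types were read beside the cell type difference, since Id2 and Tcf4 are also genes of dendritic and lymphoid cells. The 15 measured dendritic cell markers summed to 440 to 514 in FoxO-deficient and 545 to 591 in wild-type myeloid progenitors, against 1178 to 1259 in FoxO-deficient and 894 to 2190 in wild-type LSK cells. Of these markers 9 and 12 exceeded background on some array of the FoxO-deficient and wild-type myeloid progenitors, and 13 and 11 on some array of the FoxO-deficient and wild-type LSK cells. Batf3 was below background on every array, and Siglech averaged 5.74, 4.02, 3.80 and 3.22 in FoxO-deficient and wild-type myeloid progenitors and FoxO-deficient and wild-type LSK cells. Zbtb46, a factor of classical dendritic cells, went the other way from the sum, with 217 in FoxO-deficient and 247 in wild-type myeloid progenitors, against 22.4 in FoxO-deficient and 25.5 in wild-type LSK cells. Most of the LSK sum came from Flt3, Cd74, H2-Aa and H2-Ab1. Flt3, which stands in the lists for both dendritic and LSK cells, averaged 28.7 in FoxO-deficient and 35.8 in wild-type myeloid progenitors, against 247 in FoxO-deficient and 114 in wild-type LSK cells. The 12 measured B cell markers summed to 213 to 243 in FoxO-deficient and 123 to 177 in wild-type myeloid progenitors, against 1355 to 1500 and 1089 to 2252 in the FoxO-deficient and wild-type LSK cells, with Pax5 at background throughout. Most of the LSK sum was Jchain, at 1200 in FoxO-deficient and 639 in wild-type LSK cells, and Ighm, at 102 and 595. Cd79b averaged 121 in FoxO-deficient and 63.8 in wild-type myeloid progenitors, against 89.2 in FoxO-deficient and 77.7 in wild-type LSK cells. The 14 measured T, NK and innate lymphoid markers summed higher in myeloid progenitors, to 2348 to 2670 in FoxO-deficient and 1731 to 1803 in wild-type ones, against 938 to 1179 and 350 to 783 in LSK cells, of which Nkg7 made up most. Their detection went the other way from the sum. In FoxO-deficient and wild-type myeloid progenitors 5 and 4 of the 14 exceeded background on some array, against 11 and 9 in LSK cells. Gata3 averaged 2.84 and 2.27 in the myeloid progenitors, against 32.5 and 31.8 in LSK cells. Gzmb went with the sum, at 13.2 and 16.4 against 3.85 and 2.14. The part of these cells in the Id2 and Tcf4 differences was not tested.

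Genes with the most similar pattern over the 12 arrays, 1 probe set per gene, are given as a description, since the arrays fall into 2 cell types. For Id2 they were Gng2 (Pearson r = 0.984), Cd34 (0.982) and Cobll1 (0.972), and for Tcf4 they were Cpeb2 (0.987), Rnf11 (0.982) and Smox (0.979). Id2 and Tcf4 followed each other at r = 0.935, and at 0.954 without array 2. For Id3 they were Tnfrsf12a (0.953), Mir155hg (0.944) and Tcf7l2 (0.941), and for Id1 Kdm2a (0.967), Rbfox2 (0.960) and Zbtb39 (0.959). For Tcf3 they were Gga3 (0.943), Nol9 (0.935) and Abcf1 (0.918), and for Tcf12 Selenow (0.917), Bscl2 (0.913) and Ythdc1 (0.912). Without array 2 the 3 genes nearest to Id1 were the same, all 3 nearest to Tcf3 were others, and for each of Id2, Id3, Tcf4 and Tcf12 at least 1 was another gene.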

How the data were processed

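RNA was amplified with the NuGEN Ovation system and hybridised to 12 Affymetrix Mouse Genome 430 2.0 arrays, per the labels' protocols. The deposited data hold 1 linear intensity for each probe set and array; the software behind these summaries was not given in the sources used here. An offset of 0.6, the 10th percentile of all deposited intensities, was added before log2, followed by quantile normalization. Normalized intensities are antilogs of these values minus the offset. Manufacturer's controls (64 probe sets) were left out of the tests, and the filter on dim values asked a probe set to exceed the 40th percentile on 3 or more arrays. With limma 3.58.1 (lmFit, eBayes) in R 4.3.3, a model with 1 mean for each group was fitted to the 12 arrays together (8 residual degrees of freedom) for 5 contrasts. All p-values are two-sided and were adjusted by the Benjamini-Hochberg method across 31779 probe sets. Lists, motifs and figures used Python 3.11.15, pandas 2.3.3, numpy 2.4.6 and matplotlib 3.10.9.

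Symbols come from the platform annotation, which gave 34945 probe sets 1 symbol, 932 several and 9160 none, and 34741 symbols were updated through gene identifiers to a RefSeq table of assembly GRCm38.p6, which also gave coordinates. Every member is named; of each list, up to 4 called genes with the largest change per comparison could be named, together with control genes and the 3 genes most like each member. Each list gene is represented by the brightest of its kept probe sets. Where no array of the dimmer group exceeded the background limit, "at least" folds set the brighter mean against those limits or the values where higher. The members and lists were chosen with earlier results of these data known. The number of arrays limits the precision. On simulated data with known changes the fit recovered most of the largest changes and missed most of the smaller ones, so a member that was not called is not read as unchanged; the pass mark of that test was lowered to its largest changes after a first one was missed. Alternatives were median scaling, offsets of 1, 8 and 32, no filter or the 60th percentile, array weights, 1 probe set per gene, only the groups compared, and leaving out each array.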

Additional observations from a re-analysis of the deposited data

How the results depend on the processing

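No member was called for FoxO deficiency in myeloid progenitors or LSK cells, or for their difference, under any of the 9 alternatives run for each or with any of the 12 arrays left out (the restriction to the groups compared gives no difference). At an unadjusted p below 0.05 in limma these held 0 to 4, 1 to 3 and 1 to 4 members. The count between cell types depended on the processing. In wild-type cells, 4 with all arrays, it was 1 under median scaling, 1 with no filter, 2 with 1 probe set per gene and 7 with array weights. It was 0 by limma on only the groups compared (5 at an unadjusted p below 0.05), and 1 to 10 with an array left out, 10 without wild-type LSK array 2 and 1 to 3 without any other. Calls over all features also changed. In wild-type cells they were 1404 higher and 1744 lower of 45037 with no filter, and 3814 and 3289 of 31779 with array weights. With only the groups compared they were 468 and 793 of 31779, and with 1 probe set per gene 1367 and 1575 of 13732. With 1 probe set per gene each gene counts once, and the 4 and 7 calls with all arrays stand for 2 and 3 genes. The 3 Tcf4 calls were the ones lost most often. In FoxO-deficient cells the count of members, 7 with all arrays, was 3 under median scaling, 3 with 1 probe set per gene and 5 to 9 with an array left out. With 1 probe set per gene 1406 of 13732 genes were called higher and 1289 lower there. Median scaling shifted the median of all probe sets to 0.23 in FoxO-deficient and 0.19 in wild-type cells and the calls to 3618 higher and 2114 lower (2170 and 2485 under quantile normalization) and 3444 higher and 1904 lower (2208 and 2411). The cause was not tested. No paired analysis was possible because no array number is shared between groups.

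Values that changed sign, none called with all arrays, were these. For Id2 1422537_a_at between wild-type cell types (0.19) they were -0.31 and -0.36 with offsets of 8 and 32, -1.37 with array weights and -1.61 to 1.15 with an array left out, and for its FoxO effect in myeloid progenitors -0.16 to 0.20. For Id1, the FoxO effect in LSK cells was 0.0905 under median scaling and -0.76 to 0.45 with an array left out, and the difference 0.0474 with array weights and -1.01 to 0.22. For Tcf3 1426297_at they were 0.0157 under median scaling and -0.41 to 0.31 in LSK cells, and -0.70 to 0.0339 for the difference. For Tcf3 1427764_a_at the difference was 0.0342 under median scaling, 0.0166 and 0.0204 with offsets of 8 and 32, 0.000664 with array weights and -0.23 to 0.36 with an array left out, and the wild-type cell type change -0.0076 to 0.54. For Tcf3 1452542_x_at the difference was 0.10 with array weights and -0.63 to 0.40. For Tcf12 1421908_a_at in LSK cells it was 0.31 with array weights and -0.41 to 0.35. For Tcf12 1446294_at in LSK cells it was -0.0045 with an offset of 32, -0.0478 with array weights and -0.20 to 0.37. For Tcf12 1439619_at in myeloid progenitors it was 0.0552 under median scaling and -0.14 to 0.0311. For Tcf12 1427670_a_at the difference was -0.0459 with array weights and -0.0874 to 0.23, and the change between FoxO-deficient cell types 0.0727 under median scaling.

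With 3 arrays a group the intervals are wide, and probe sets near background, such as Id3 in myeloid progenitors, have no measured size of change.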
